A study of Oryza sativa Indica Group with 12 samples.

Results

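RNAPII loops of 20 to 100 kb are pairs of RNA polymerase II (RNAPII) binding sites whose midpoints lie over 20 and up to 100 kb apart on the same chromosome and that were joined by paired-end tags (PETs) in rice leaves. All loops with such a span were taken from the joined RNAPII lists of the varieties MH63 and ZS97, provided that the anchors at their ends did not overlap each other. This gave 6012 of 17160 loops in MH63 and 4580 of 13012 loops in ZS97, 10592 in both varieties, of 64726 loops in all 6 lists of the series. The loops were chosen by their span, a measured value, so their spans and their number are given as descriptions.

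The study mapped chromatin contacts by ChIA-PET in young leaves of 2-week-old seedlings of Minghui 63 (MH63) and Zhenshan 97 (ZS97), the indica parents of the hybrid Shanyou 63, with tissue cross-linked by formaldehyde and ethylene glycol bis(succinimidylsuccinate). Antibodies were directed against RNAPII, H3K4me3 and H3K9me2, with 2 replicates for each antibody in each variety, 12 libraries in 6 groups. No treatment or mutation was involved, and the leaves hold a mixture of cell types. The replicates of a group had been joined before loops were called, so each variety has 1 RNAPII list, and the replicate error of the values is not known.

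RNAPII transcribes genes into messenger RNA, and its binding sites mark promoters and transcribed gene bodies. In ChIA-PET, chromatin fragments bound by one protein are pulled down and DNA ends held in the same complex are ligated, so that a PET with its ends at distant sites records a contact between them. H3K4me3 is a histone mark of active promoters and H3K9me2 a mark of heterochromatin, which in rice lies mostly around the centromeres and over transposons. Anchors of these targets show which ends of an RNAPII loop lie at or beside sites with these marks, and an end can meet both.

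The lowest PET count listed was 4 in MH63 and 6 in ZS97. Varieties were therefore compared on loops with a PET count of at least 6, and all values from here on are for those loops unless said otherwise. They hold 158673 PETs in MH63 and 197758 PETs in ZS97. Shares are given with Wilson 95% intervals and medians with exact binomial 95% intervals. These cover counting error only, and they treat loops as separate although loops share anchors. Positions are in the coordinates of each variety's own genome from the Rice Information GateWay, and loops were not matched between the varieties by position. No gene annotation of these genomes was used, so loops are named by their coordinates.

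At this PET count, loops of 20 to 100 kb were 3632 of 9618 RNAPII loops in MH63, 37.8% (36.8 to 38.7), and 4580 of 13012 in ZS97, 35.2% (34.4 to 36.0). The difference, MH63 minus ZS97, was 2.56 percentage points (Newcombe 95% interval 1.30 to 3.83). It was 2.73 points (0.892 to 4.58) with a limit of 10 PETs in both varieties. With unequal limits it was -0.163 points over all deposited loops and 0.733 points when only ZS97 loops needed a PET count of 10. The limit of 10 was set for the greater depth of the ZS97 library. A further 2568 loops in MH63 and 3942 in ZS97 spanned up to 20 kb, and 1683 and 1788 spanned 100 kb to 1 Mb in MH63 and ZS97. Loops of over 1 Mb numbered 1355 in MH63 and 2401 in ZS97, and the comparisons of classes below leave them out. Within the range itself short spans were most frequent. The median span was 38.8 kb in MH63 and 36.8 kb in ZS97. The step of 20 to 30 kb held 1150 loops in MH63 and 1589 in ZS97, and the step of 90 to 100 kb held 142 and 136.

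**Figure D1:**
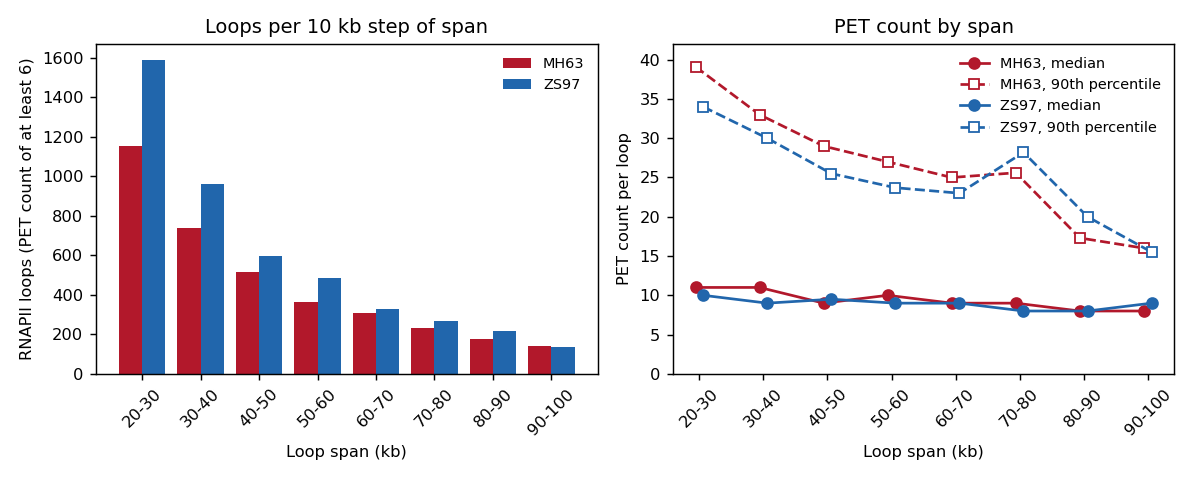
RNAPII loops of 20 to 100 kb by span, in steps of 10 kb, for MH63 (red) and ZS97 (blue). Left, number of loops with a PET count of at least 6, from 1150 in MH63 and 1589 in ZS97 at 20 to 30 kb to 142 and 136 at 90 to 100 kb. Right, the median PET count (filled circles, between 8 and 11 in every step) and the 90th percentile (open squares), which is highest in the first step, at 39.1 in MH63 and 34 in ZS97.

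The limits of the range cut through a continuous series of loops. In MH63 the 3 loops nearest above the lower limit spanned 20002, 20005 and 20006 bp with 6, 13 and 13 PETs, and the 3 nearest below it spanned 19996, 19994 and 19968 bp with 16, 9 and 15 PETs. In ZS97 the corresponding loops above spanned 20014, 20014 and 20027 bp with 7, 6 and 14 PETs, and those below 19999.5, 19999.5 and 19992 bp with 11, 10 and 6 PETs. At the upper limit, the 3 MH63 loops inside spanned 99856, 99824 and 99763 bp with 8, 11 and 7 PETs, and the 3 outside 100004, 100048 and 100136 bp with 25, 6 and 10 PETs. The 3 ZS97 loops inside spanned 99991, 99937 and 99742 bp with 21, 7 and 6 PETs, and the 3 outside 100041, 100335 and 100355 bp with 7, 7 and 18 PETs. PET counts on either side of each limit overlapped.

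Most loops of 20 to 100 kb rested on few PETs. The median PET count was 10 (10 to 10) in MH63 and 9 (9 to 10) in ZS97, and 17.7% of the MH63 loops and 19.3% of the ZS97 loops stood at the limit of 6. In bulk leaf tissue, a contact made in more cells and a contact made more often in each cell cannot be told apart from the PET count. For loops of up to 20 kb the medians were 12 in MH63 and 11 in ZS97, and for loops of 100 kb to 1 Mb 8 in both varieties. All classes were cut at the same limit of 6, and the upper part of the distribution separated them further. Loops with at least 50 PETs made up 4.24% of the loops of 20 to 100 kb in MH63 and 3.73% in ZS97, against 8.61% and 5.91% of loops of up to 20 kb and 0.238% and 0.168% of loops of 100 kb to 1 Mb.

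A small set of loops carried a large part of the PETs. The 36 loops with the most PETs in MH63, the top 1%, had at least 112 PETs each and held 11.8% of all PETs of the class, and the 46 in ZS97 had at least 96 PETs each and held 11.5%. Of these, 29 of 36 in MH63 and 41 of 46 in ZS97 had H3K4me3 anchors at both ends, and 35 of 36 and 45 of 46 had an RNAPII anchor that was joined to both ends. Their median span was 27.8 kb in MH63 and 29.2 kb in ZS97. Their anchors were wide, with a median of the mean anchor width of 9.60 kb in MH63 and 8.39 kb in ZS97, against 6.01 and 4.81 kb over all loops of the class. Across loops PET count and anchor width had a Spearman rho of 0.41 in MH63 (n = 3632 loops) and 0.40 in ZS97 (n = 4580), a description over loops of 1 joined library each, in which a wider anchor also covers more bases. The part of anchor width in these PET counts was not tested.

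The loop with the most PETs lay on chromosome 3 in each variety. In MH63 it joined chr3:9063200-9072754 with chr3:9089461-9099140 over 26.3 kb with 817 PETs. In ZS97 it joined chr3:9260251-9271676 with chr3:9288727-9298475 over 27.6 kb with 1052 PETs. Both loops had H3K4me3 anchors at their 2 ends and an H3K4me3 loop over the same pair, with 9 PETs in MH63 and 20 in ZS97. A total of 26 RNAPII anchors in MH63 and 13 in ZS97 were joined to both ends. Each of these loops lay inside the largest group of connected anchors of its variety.

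The next 4 loops by PET count in MH63 carried 222 to 628 PETs. They joined chr10:21361649-21377591 with chr10:21384710-21398237 (628 PETs), chr5:24015145-24022551 with chr5:24038979-24047266 (327 PETs), chr1:33568030-33573281 with chr1:33595734-33604220 (223 PETs) and chr2:32459521-32464479 with chr2:32479807-32487342 (222 PETs). All 4 had H3K4me3 anchors at both ends, and each was also joined by an H3K4me3 loop, of 4 to 9 PETs. The chromosome 1 loop had an H3K9me2 anchor at 1 end.

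In ZS97 the next 4 carried 210 to 623 PETs. They joined chr1:29382370-29390724 with chr1:29401616-29412542 (623 PETs), chr5:22178903-22186467 with chr5:22201393-22210910 (290 PETs), chr4:30228214-30241710 with chr4:30260678-30277775 (272 PETs) and chr11:5203612-5205049 with chr11:5237314-5248153 (210 PETs). The chromosome 5 loop had an H3K9me2 anchor at 1 end. The chromosome 11 loop stood apart from the others in H3K4me3. Only 1 of its ends met an H3K4me3 anchor, its left anchor was 1.44 kb wide, and no H3K4me3 loop joined the same pair. Strong loops with no H3K4me3 anchor at either end were also present. The one with the most PETs, named after its values were seen, was chr11:16463247-16475267 with chr11:16489743-16498102 in MH63, with 169 PETs, and chr11:2859434-2863339 with chr11:2883339-2883884 in ZS97, with 71 PETs.

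Anchors of H3K4me3, the mark of active promoters, were present at most ends of these loops. They are anchors of called H3K4me3 loops, and H3K4me3 sites outside such loops were not counted. An end without one may still carry the mark. H3K4me3 at an end stands for such an anchor throughout. H3K4me3 anchors, overlapping by at least 1 bp, were found at both ends of 40.9% (39.4 to 42.5) of the loops in MH63 and 41.2% (39.7 to 42.6) in ZS97, at 1 end of 45.1% and 46.2%, and at neither end of 13.9% and 12.7%. The difference between the varieties in the share with both ends was -0.216 points (-2.35 to 1.93). It was -0.173 points (-3.22 to 2.87) with a limit of 10 PETs in both varieties. It rested on equal limits, and was -7.36 points (-9.22 to -5.50) over all deposited loops. With the limit of 10 in ZS97 only it was -8.10 points (-10.7 to -5.49). Among loops of up to 20 kb the share with both ends was 27.1% in MH63 and 29.5% in ZS97, and among loops of 100 kb to 1 Mb it was 61.9% and 71.4%. The share also went up within the class, with values of 35.0% at 20 to 30 kb and 58.5% at 90 to 100 kb in MH63, and of 34.6% and 55.1% in ZS97.

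Anchor width moved with span. The median of the mean anchor width was 6.01 kb in MH63 and 4.81 kb in ZS97 for loops of 20 to 100 kb, 4.56 and 3.44 kb for loops of up to 20 kb, and 8.45 and 7.99 kb for loops of 100 kb to 1 Mb. At a mean width of 4 to 8 kb, H3K4me3 anchors stood at both ends of 40.6% of the loops of 20 to 100 kb, 32.1% of the loops of up to 20 kb and 56.0% of the loops of 100 kb to 1 Mb in MH63, and of 47.7%, 40.2% and 64.8% in ZS97. At widths over 8 kb the order was the same, with 55.9%, 49.6% and 66.9% in MH63 and 65.7%, 52.6% and 80.0% in ZS97. At widths of up to 4 kb it was not, with 20.3%, 14.6% and 5.56% in MH63, the last from 18 loops, and 22.75%, 22.3% and 39.7% in ZS97, the last from 73 loops. Fixed windows did not keep the order either. When each anchor was replaced by a window of 2 kb at its midpoint, the shares with both ends were 11.7% for loops of 20 to 100 kb, 9.74% for up to 20 kb and 12.3% for 100 kb to 1 Mb in MH63, and 19.2%, 19.7% and 19.4% in ZS97. Within the class the fixed windows gave 13.3% at 20 to 30 kb and 14.1% at 90 to 100 kb in MH63 and 18.8% and 18.4% in ZS97, with intervals that overlapped. With these windows ZS97 had the higher share, by 7.53 points, where whole anchors gave a difference of less than 1 point.

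H3K4me3 anchors often lay to the side of the midpoint. Of the 7264 loop ends in MH63, 45.7% met 1 H3K4me3 anchor and 17.8% met 2 or more, and of the 9160 ends in ZS97, 47.6% and 16.6%. At ends with 1 H3K4me3 anchor, its midpoint was a median of 1.94 kb in MH63 and 1.34 kb in ZS97 from the midpoint of the RNAPII anchor. It lay nearer the edge than the centre, or beyond the edge, at 70.4% (68.9 to 72.0) of these ends in MH63 and 60.9% (59.4 to 62.3) in ZS97. This was 71.3% and 59.1% for loops of up to 20 kb and 65.1% and 61.9% for loops of 100 kb to 1 Mb. An overlap of 1 bp admits midpoints beyond the edge, so evenly placed anchors would also fall mostly on the outer side. The share for such placement was not computed, and no preference for the edge can be read from these values. In loops of 20 to 100 kb the H3K4me3 midpoint lay on the side facing the other end at 52.6% (50.9 to 54.3) in MH63 and 52.9% (51.4 to 54.3) in ZS97. This last share was 49.9% (47.8 to 52.1) in MH63 and 49.6% (47.9 to 51.3) in ZS97 for loops of up to 20 kb. For loops of 100 kb to 1 Mb it was 49.9% (47.4 to 52.3) and 50.1% (47.8 to 52.4). In MH63 both intervals overlap that of the loops of 20 to 100 kb, and in ZS97 only the second does. Anchors are counted once per loop end, with 7264 ends over 3580 anchors in MH63 and 9160 over 4329 in ZS97. The intervals are therefore too narrow.

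**Figure D2:**
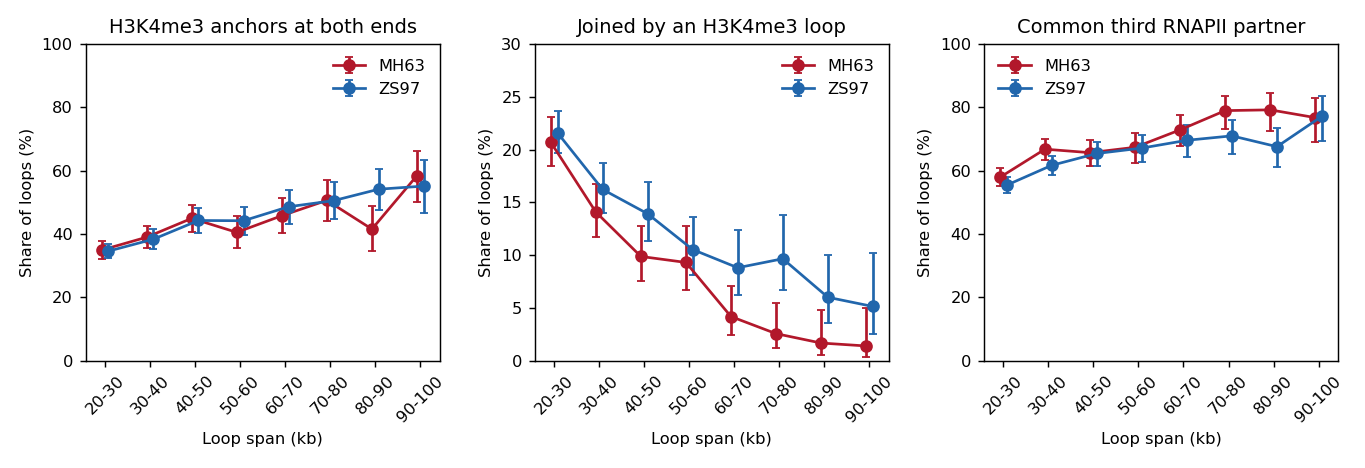
Share of RNAPII loops of 20 to 100 kb, in percent, by span in steps of 10 kb, for MH63 (red) and ZS97 (blue), with Wilson 95% intervals. Left, H3K4me3 anchors at both ends, 35.0% and 34.6% in the first step and 58.5% and 55.1% in the last. Middle, joined by an H3K4me3 loop as well (axis to 30%), 20.7% and 21.6% in the first step and 1.41% and 5.15% in the last. Right, a common RNAPII partner of both ends, 57.9% and 55.4% in the first step and 76.8% and 77.2% in the last.

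Loops with H3K4me3 at both ends carried more PETs. Their median PET count was 12 (11 to 13) in MH63 and 11 (11 to 12) in ZS97, against 9 (9 to 9) with H3K4me3 at 1 end in both varieties and 8 with H3K4me3 at neither end (8 to 9 in MH63, 8 to 8 in ZS97). At least 20 PETs were found in 27.9%, 15.5% and 10.9% of these 3 groups in MH63 and in 26.5%, 12.7% and 7.59% in ZS97. The gap was widest among wide anchors. At a mean width over 8 kb the medians were 19 (18 to 21) for both ends and 15 (12 to 17) for 1 end in MH63, and 22 (20 to 24) and 13 (11 to 14) in ZS97. At 4 to 8 kb they were 11 and 9 in MH63 and 11 and 10 in ZS97, and at up to 4 kb 8 and 7 in MH63 and 8 and 8 in ZS97. In the fixed windows of 2 kb no such gap was seen, with medians of 10, 10 and 10 for both ends, 1 end and neither end in MH63, and of 9, 9 and 10 in ZS97.

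**Figure D3:**
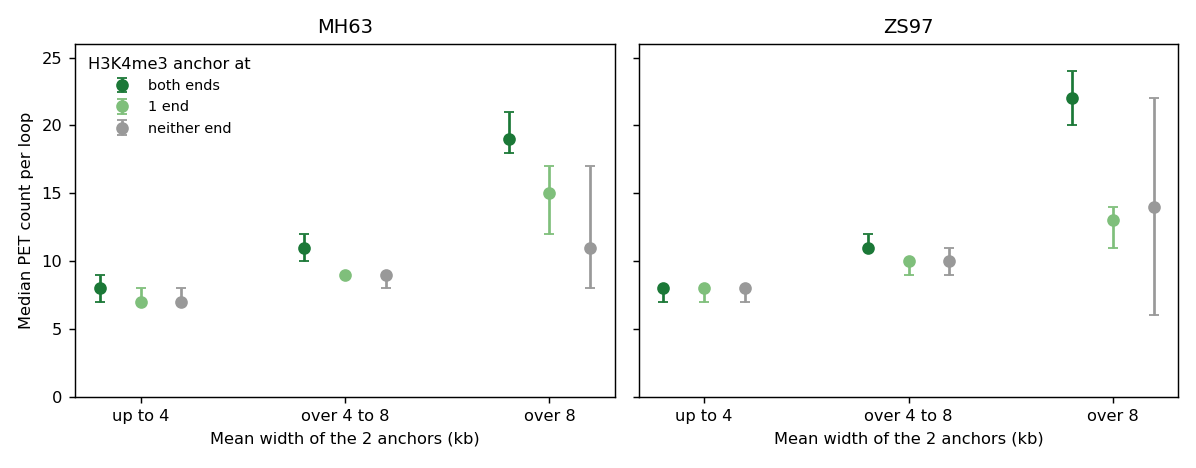
Median PET count of RNAPII loops of 20 to 100 kb by the mean width of their anchors, with H3K4me3 anchors at both ends (dark green), 1 end (light green) or neither end (grey), in MH63 (left) and ZS97 (right). Bars are exact binomial 95% intervals of the median. At widths over 8 kb the medians are 19, 15 and 11 in MH63 and 22, 13 and 14 in ZS97, the last from 8 loops, and at up to 4 kb they lie between 7 and 8.

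Far fewer loops were joined by an H3K4me3 loop over the same pair of anchors than had H3K4me3 anchors at both ends. An H3K4me3 loop joined 12.4% (11.4 to 13.5) of the loops in MH63 and 15.5% (14.4 to 16.5) in ZS97, a difference of -3.04 points (-4.53 to -1.53). It was -4.49 points (-6.90 to -2.06) with a limit of 10 PETs in both varieties. Over all deposited loops it was -6.86 points, and with the limit of 10 in ZS97 only -9.66 points. The H3K4me3 lists themselves differed in size, with 9714 loops in MH63 and 12279 in ZS97, of which 3488 and 4915 spanned 20 to 100 kb. All these settings used the same H3K4me3 lists, and the part of list size in the difference was not tested. The share joined by an H3K4me3 loop was 19.3% and 22.5% for loops of up to 20 kb and 0.594% and 1.06% for loops of 100 kb to 1 Mb in MH63 and ZS97. Within the class it went down with span, with values of 20.7% at 20 to 30 kb and 1.41% at 90 to 100 kb in MH63 and of 21.6% and 5.15% in ZS97. The share with H3K4me3 anchors at both ends differed the other way between these first and last steps.

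Loops that both targets joined were shorter and carried more PETs. The 451 such loops in MH63 had a median span of 29.3 kb and a median PET count of 17 (15 to 19), and the 708 in ZS97 had 30.5 kb and 15 (14 to 16). The 1036 MH63 loops with H3K4me3 anchors at both ends but no H3K4me3 loop had a median span of 49.3 kb and a median PET count of 11, and the 1177 in ZS97 had 49.3 kb and 10. H3K4me3 loops entered this count from 4 PETs, the lowest count in their lists, and weaker H3K4me3 contacts were not counted.

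H3K9me2 anchors were rare at the ends. At least 1 end met an H3K9me2 anchor in 5.53% (4.84 to 6.33) of the loops in MH63 and 4.50% (3.93 to 5.14) in ZS97, a difference of 1.04 points (0.09 to 2.01). That difference was 0.0799 points with a limit of 10 PETs in both varieties, 0.47 points (-0.737 to 1.62) with this limit in ZS97 only and 0.625 points (-0.205 to 1.44) over all deposited loops. For loops of up to 20 kb the share was 3.23% in MH63 and 3.12% in ZS97. For loops of 100 kb to 1 Mb it was 5.53% and 7.05%. Both ends met an H3K9me2 anchor in 12 loops of 20 to 100 kb in MH63 and 11 in ZS97. The strongest of the 12 in MH63 joined chr1:17701794-17712576 with chr1:17758174-17765699 with 79 PETs, followed by chr1:15751892-15753619 with chr1:15772402-15775225 (20 PETs) and chr2:15520939-15525514 with chr2:15546383-15559049 (17 PETs). The strongest of the 11 in ZS97 joined chr4:23455157-23458626 with chr4:23525310-23534585 with 49 PETs, followed by chr5:22085786-22103865 with chr5:22178903-22186467 (41 PETs) and chr1:16925217-16941888 with chr1:17018079-17020854 (36 PETs). H3K4me3 anchors were also present at both ends of 3 of the 12 loops in MH63, 25% (8.89 to 53.2), and of 7 of the 11 in ZS97, 63.6% (35.4 to 84.8).

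H3K9me2 anchors were also counted in the stretch between the ends, but by another rule than at the ends. An end counted from an overlap of 1 bp, and the stretch only when it held a complete anchor. The shares for ends and stretches therefore cannot be ranked against each other. A complete H3K9me2 anchor lay between the ends of 10.4% of the loops in MH63 and 10.3% in ZS97. This share was 3.74% and 4.34% at 20 to 30 kb, where 4.26% and 3.40% of the loops met one at an end. At 90 to 100 kb it was 24.6% and 17.6%. Among loops of up to 20 kb it was 0.857% and 1.78%, and among loops of 100 kb to 1 Mb 46.9% and 43.3%. A stretch shorter than an anchor cannot hold it. In H3K9me2 loops of 20 to 100 kb the median anchor width was 23.0 kb in MH63 and 20.1 kb in ZS97. The part of stretch length in the rise with span was not tested. In MH63 13.6% and in ZS97 14.1% of the loops of 20 to 100 kb had their midpoint inside an H3K9me2 loop with an outer length of up to 1 Mb. That midpoint share was 11.4% and 13.1% for loops of up to 20 kb and 16.5% and 17.3% for loops of 100 kb to 1 Mb. Within the class of 20 to 100 kb it was 22.5% in MH63 and 27.2% in ZS97 for loops with no H3K4me3 anchor at either end. With H3K4me3 at both ends it was 8.74% and 10.1%. A complete H3K4me3 anchor lay between the ends of 81.1% of the loops in MH63 and 87.2% in ZS97.

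Other RNAPII anchors commonly lay between the ends. The median number was 1 in MH63 and 2 in ZS97, and 28.8% of the loops in MH63 and 22.2% in ZS97 had none between their ends. Those with none had a median span of 30.2 kb in MH63 and 30.8 kb in ZS97, and those with 5 or more of 72.6 and 54.7 kb. Over the whole lists, RNAPII anchors numbered 5345 in MH63 and 6901 in ZS97 when overlapping intervals were joined.

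The ends of most loops had a common partner, meaning an RNAPII anchor joined to both by loops of any span. This held for 66.2% (64.6 to 67.7) of the loops in MH63 and 62.4% (61.0 to 63.8) in ZS97, a difference of 3.74 points (1.66 to 5.82). The difference was -0.172 points when intervals within 1 kb of each other were joined into 1 anchor. With a limit of 10 PETs in both varieties it was 3.99 points (0.942 to 7.02). With unequal limits it was 11.7 points over all deposited loops and 14.5 points when only ZS97 loops needed a PET count of 10. Among loops of up to 20 kb the share was 50.7% in MH63 and 45.9% in ZS97, and among loops of 100 kb to 1 Mb 81.0% and 78.0%. At a mean anchor width of 4 to 8 kb it was 65.8% for loops of 20 to 100 kb, 53.6% for up to 20 kb and 75.2% for 100 kb to 1 Mb in MH63, and 68.7%, 55.0% and 72.5% in ZS97. At up to 4 kb the order held in MH63, with 46.5%, 42.7% and 61.1%, the last from 18 loops, but not in ZS97, with 48.1%, 40.1% and 31.5% (22.0 to 42.9), the last from 73 loops. Over 8 kb the shares were 80.6%, 68.3% and 85.5% in MH63 and 76.5%, 59.5% and 87.0% in ZS97.

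Loops whose ends had a common partner carried more PETs and more often had H3K4me3 at both ends. Their median PET count was 11 in both varieties, against 8 in both for loops whose ends had none, and H3K4me3 anchors stood at both ends of 48.8% of them in MH63 and 50% in ZS97, against 25.5% and 26.5%. Anchor width moved with this split as well, with medians of 6.41 kb in MH63 and 5.26 kb in ZS97 with a common partner and 5.30 and 4.06 kb without. Within the widths of 4 to 8 kb the share with a common partner was 76.9% for H3K4me3 at both ends, 60.1% for 1 end and 51.3% for neither in MH63, and 78.4%, 60.3% and 56.3% in ZS97.

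In 1388 loops in MH63 and 1650 in ZS97 the common partner lay between the ends, so that the same pair was joined both directly and in steps. The direct contact had fewer PETs than the weaker of the steps through the best such partner in 730 of the 1388 cases in MH63, 52.6% (49.96 to 55.2), and in 825 of the 1650 in ZS97, 50% (47.6 to 52.4). It had more in 579 cases in MH63 and 742 in ZS97. Each step was shorter than the direct contact, and the best partner was taken where there were several. The part of span and of this choice in these shares was not tested, so 50% is not a neutral reference here.

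The ends of the loops formed 3580 anchors in MH63 and 4329 in ZS97. Over loops of 20 to 100 kb, 55.3% of the anchors in MH63 and 57.8% in ZS97 had 1 partner, 22.3% and 21.9% had 3 or more, and the highest number was 13 in MH63 and 15 in ZS97. Loops of other lengths used many of the same anchors. In MH63 51.5% of the anchors also served loops of up to 20 kb and 32.8% also loops of over 100 kb, and in ZS97 51.1% and 32.7%. A further 38.0% in MH63 and 39.3% in ZS97 served loops of 20 to 100 kb and neither of those classes.

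Anchors with more partners were wider and more often carried H3K4me3. H3K4me3 was found at 40.4% of the anchors with 1 partner and 86.8% (81.7 to 90.7) of the 220 anchors with 5 or more in MH63, and at 41.5% and 92.6% (89.0 to 95.04) of 296 in ZS97. The median width of these anchors was 3.01 kb with 1 partner and 8.94 kb with 5 or more in MH63, and 1.50 and 8.45 kb in ZS97. The part of width in these shares was not tested. Anchors with more than 1 partner had partners on both sides in 67.5% (65.2 to 69.8) of 1602 cases in MH63 and 63.8% (61.6 to 65.98) of 1829 in ZS97.

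The anchor with the most partners in MH63 was chr3:8471453-8482583, 11.1 kb wide, with 13 partners over loops of 20 to 100 kb and 34 over all loops. Of its partners 8 lay to the left and 5 to the right, over spans of 22.9 to 98.2 kb, with 7 to 132 PETs (median 14), and 10 of the 13 had H3K4me3. In ZS97 it was chr5:22085786-22103865, 18.1 kb wide, with 15 partners over these loops and 92 over all loops. Of these 9 lay to the left and 6 to the right, over spans of 21.1 to 90.1 kb, with 6 to 166 PETs (median 13.5), and 9 of the 15 had H3K4me3. This ZS97 anchor carried H3K4me3 and 1 H3K9me2 anchor, and the MH63 anchor on chromosome 3 carried H3K4me3 only.

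On chromosome 5, the anchor with the most partners over all loops had a similar set of loops around it in each variety. It was chr5:23922903-23940381 in MH63, with 80 partners over all loops and 11 over loops of 20 to 100 kb, and chr5:22085786-22103865 in ZS97. This pair was picked after the values were seen, and whether both are the same locus was not determined. In MH63 the strongest loops at the anchor ended 32.6 kb (128 PETs) and 43.6 kb (62 PETs) to its left and 34.6 kb (207 PETs), 48.8 kb (112 PETs) and 87.2 kb (62 PETs) to its right. In ZS97 the strongest ended 32.5 kb (74 PETs) and 42.8 kb (72 PETs) to the left and 35.0 kb (166 PETs) and 87.9 kb (41 PETs) to the right, with no loop of this class at 48.8 kb. The strongest loop nearby ran from 87.2 to 111.5 kb right of the centre in MH63, with 327 PETs, and from 87.9 to 111.3 kb in ZS97, with 290 PETs. This ZS97 loop had an H3K9me2 anchor at 1 end and the MH63 loop at neither. Within 200 kb of the centre there were 39 loops of this class with 1555 PETs in MH63 and 30 loops with 967 PETs in ZS97, of which 22 in MH63 and 19 in ZS97 had H3K4me3 anchors at both ends.

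**Figure D4:**
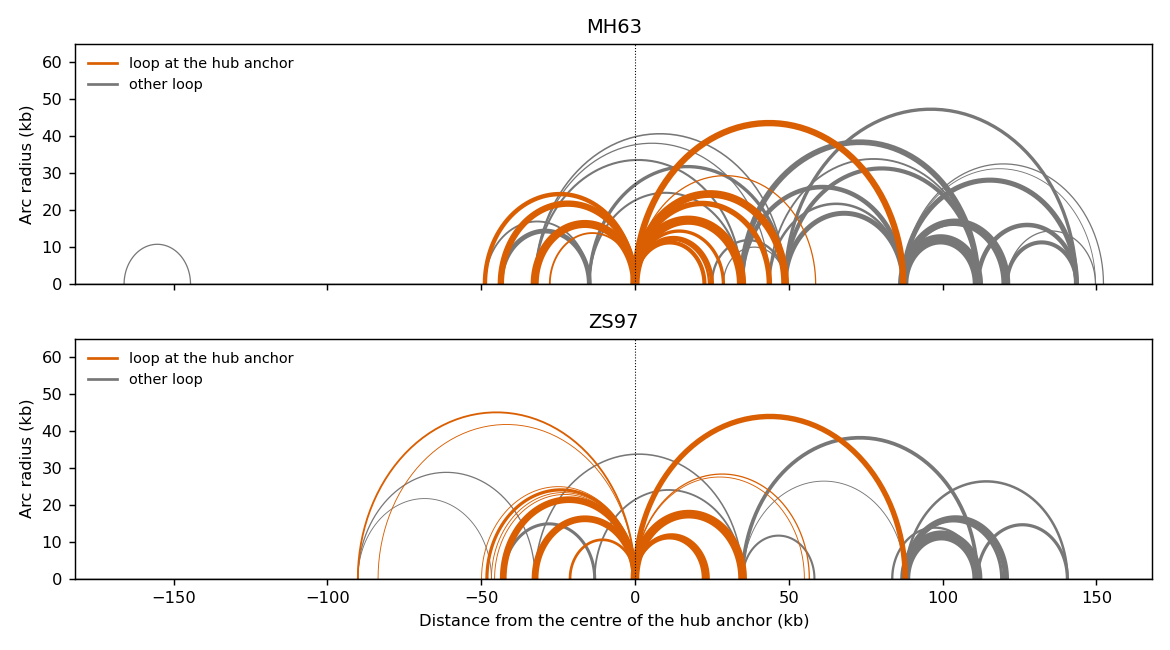
RNAPII loops of 20 to 100 kb around the chromosome 5 anchor with the most partners, in MH63 (above) and ZS97 (below). Each arc joins the midpoints of the ends of a loop, as a semicircle, with the distance from the centre of that anchor in kb on the x axis and its radius in kb on the y axis. Line width grows with the log of the PET count, and loops at the anchor are orange. The strongest loops at the anchor end 32.6 kb to the left and 34.6 kb to the right in MH63 and 32.5 and 35.0 kb in ZS97.

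Loops of 20 to 100 kb linked anchors into 747 connected groups in MH63 and 820 in ZS97. Of these, 249 in MH63 and 295 in ZS97 held 2 anchors, and 265 and 309 held at least 5. The groups of at least 5 held 64.1% of the anchors in MH63 and 69.1% in ZS97. The largest group in MH63 ran over chr3:8936596-9799115 with 42 anchors and 88 loops, and the largest in ZS97 over chr3:8611809-10184550 with 82 anchors and 150 loops. They covered 863 kb in MH63 and 1573 kb in ZS97, beyond the span of any loop of the class.

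The loops were unevenly spread along the genome. Over 12 chromosomes there were 10.1 (9.78 to 10.4) loops per Mb in MH63 and 13.2 (12.8 to 13.6) in ZS97, with an exact Poisson 95% interval and with the length of each chromosome taken as the highest coordinate in its lists. Chromosome 3 was densest, with 21.2 loops per Mb in MH63 and 27.2 in ZS97, and chromosomes 12 and 11 were sparsest, with 1.84 and 1.95 in MH63 and 2.53 and 3.02 in ZS97. The order of the chromosomes was nearly the same in both varieties (Pearson's r = 0.98 across n = 12 chromosomes, as a description). ZS97 had the higher density on 12 of 12 chromosomes where the same limit of 6 applied to both varieties. MH63 had it on 12 of 12 when only ZS97 loops needed a PET count of 10. The direction of this difference thus rested on whether the limits were equal.

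The sparse chromosomes also had the lowest shares of H3K4me3 at both ends. H3K4me3 anchors stood at both ends of 16.9% (9.48 to 28.5) of the 59 loops on chromosome 11 in MH63 and 24.1% (16.2 to 34.3) of the 83 in ZS97, and of 23.9% of the 46 loops on chromosome 12 in MH63 and 26.7% of the 60 in ZS97. On chromosome 3 the share was 51.0% (47.5 to 54.4) of 783 loops in MH63 and 47.4% (44.2 to 50.6) of 916 in ZS97. An H3K9me2 anchor stood at an end of 20.3% of the chromosome 11 loops in MH63 and 24.1% in ZS97, the highest shares among the 12 chromosomes, where the median was 5.70% in MH63 and 4.02% in ZS97. On chromosome 12 it was 13.04% (6.12 to 25.7) in MH63 and 5% (1.71 to 13.7) in ZS97, from 6 and 3 loops. A common partner was least frequent on chromosome 12, with 28.3% in MH63 and 40.0% in ZS97, and most frequent on chromosome 3, with 73.8% and 70.7%.

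**Figure D5:**
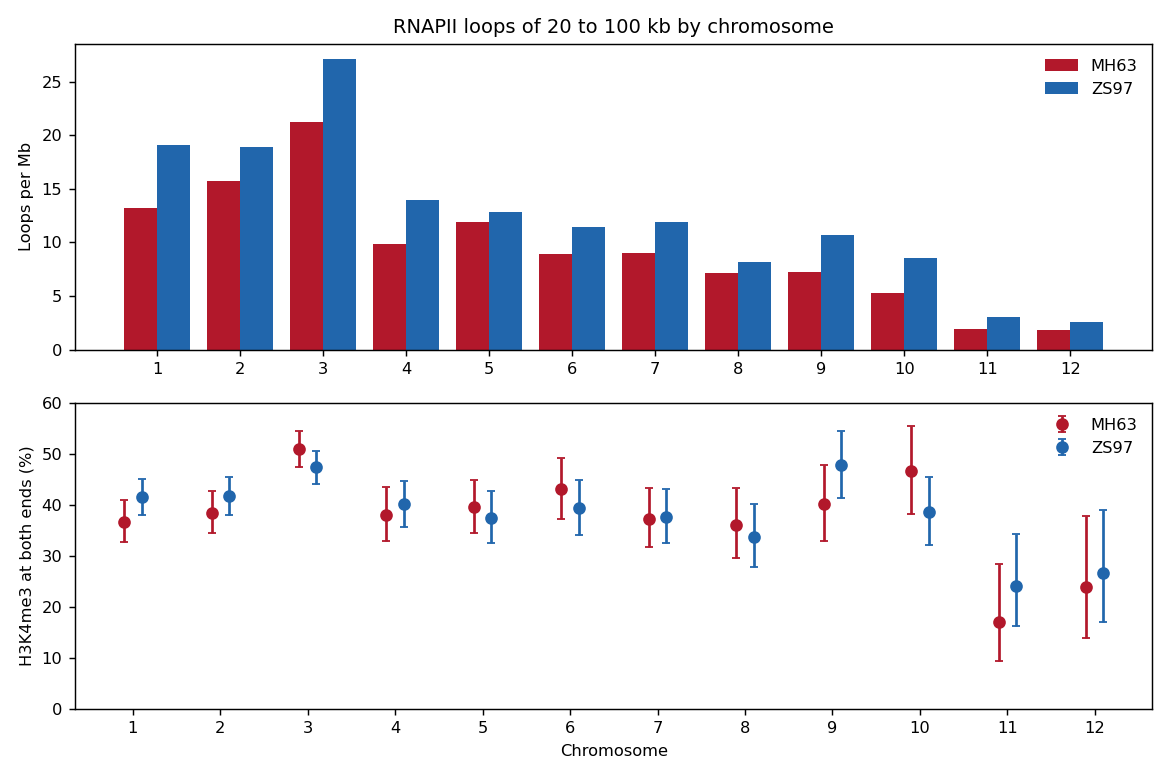
RNAPII loops of 20 to 100 kb on each of the 12 chromosomes in MH63 (red) and ZS97 (blue), at a PET count of at least 6. Top, loops per Mb, from 1.84 in MH63 and 2.53 in ZS97 on chromosome 12 to 21.2 and 27.2 on chromosome 3. Bottom, the share with H3K4me3 anchors at both ends in percent, with Wilson 95% intervals, lowest on chromosome 11 in both varieties.

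Along the chromosomes the loops lay towards the ends. When each chromosome was cut into 10 equal parts by length, the outermost pair of parts held 27.9% (26.4 to 29.3) of the loops in MH63 and 27.4% (26.1 to 28.7) in ZS97, and the central pair held 8.04% (7.20 to 8.97) and 7.49% (6.76 to 8.29). H3K9me2 loops had the opposite order, with 5.28% in the outermost and 46.9% in the central pair in MH63 and 5.12% and 47.6% in ZS97. Loops of up to 20 kb had 30.6% (28.8 to 32.4) in the outermost pair in MH63 and 29.7% (28.3 to 31.2) in ZS97, and loops of 100 kb to 1 Mb had 23.6% (21.7 to 25.7) and 22.7% (20.8 to 24.6). The longer loops were most frequent in the next pair inwards, with 32.0% in MH63 and 28.3% in ZS97, where loops of 20 to 100 kb had 27.8% and 27.3%. The central pair held 7.79% to 9.28% of both these classes.

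The loops were also concentrated locally. Of the windows of 100 kb, 31.9% in MH63 and 34.4% in ZS97 held the midpoint of at least 1 loop, and the windows with at least 5 held 50.9% of the loops in MH63 and 62.7% in ZS97. The densest window in MH63 was chr5:23900001-24000000, with 24 loops over 13 anchors and 910 PETs, and it holds the chromosome 5 anchor described above. The densest in ZS97 was chr2:3200001-3300000, with 24 loops over 13 anchors and 444 PETs. In each of these windows 17 of the 24 loops had H3K4me3 anchors at both ends.

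Loops of the same span in the lists of the other targets had other PET counts and widths. At a PET count of at least 6, there were 920 H3K4me3 loops of 20 to 100 kb in MH63 and 1590 in ZS97, and 1430 and 1860 H3K9me2 loops. RNAPII loops reached 817 PETs in MH63 and 1052 in ZS97, against 30 and 70 for H3K4me3 and 174 and 237 for H3K9me2. At least 50 PETs were found in 154 RNAPII loops, 0 H3K4me3 loops and 46 H3K9me2 loops in MH63, and in 171, 1 and 145 in ZS97. Anchor widths differed as well, with medians of 6.01 kb in MH63 and 4.81 kb in ZS97 for RNAPII, 1.85 and 2.01 kb for H3K4me3 and 23.0 and 20.1 kb for H3K9me2. The counts were not scaled to the depth of each library, and the part of depth and of anchor width in these differences was not tested.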

How the data were processed

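The 12 ChIA-PET libraries were made from leaves of 2-week-old seedlings, with 2 replicates for each variety and target. The authors removed linkers, mapped tags to the variety's own genome, removed redundant PETs, joined the replicates and called loops between ChIP-seq peaks extended on both sides, using an updated ChIA-PET Tool (version and genome release not given in the sources used here). The deposited count of a loop is its number of PETs, summed over replicates and not scaled to depth. The deposited p-value and FDR of each loop, under 0.05, were told apart by their order. The total PETs of the libraries are not in the lists, and 0 per-sample columns were left unused.

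Span was measured from midpoint to midpoint. Overlapping intervals (1 bp or more) within a list were merged to form an anchor. Ends were called H3K4me3 or H3K9me2 when they overlapped an anchor of any loop in that list by at least 1 bp. Sites of these targets outside called loops were not counted. Because replicates were joined, loops were counted and described with no test. The steps were tested on simulated intervals with known answers (Python 3.11.15, numpy 2.4.6, pandas 2.3.3, scipy 1.17.1, matplotlib 3.10.9).

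Named loops were the 5 with the most PETs per variety, the 3 with the most PETs with H3K4me3 or with H3K9me2 at both ends, and the 3 on each side of each span limit, beside the anchor with the most partners and the densest window of 100 kb. The members and lists were chosen with earlier results of these data known. Alternatives were the PET limit (10, none, or 10 in ZS97 only), outer or inner span, an FDR under 0.01, an overlap of 50%, windows of 2 kb, other joining of anchors and common partners over loops of up to 1 Mb only.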

Additional observations from a re-analysis of the deposited data

How the results depend on the processing

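No paired analysis was possible because the replicates of each group were joined by the authors before loops were called, and for the same reason no replicate could be left out. All values are for loops of 20 to 100 kb, with MH63 given before ZS97 and differences as MH63 minus ZS97, and the cause of each change was not tested. Of the 127 values that an alternative could change, 56 moved by less than their counting interval. With at least 10 PETs in both varieties, the share of the list was 39.8% and 37.0%, the median PET count 16 and 16, the share with H3K4me3 at both ends 48.9% and 49.0%, with an H3K4me3 loop 17.6% and 22.1%, with a common partner 55.7% and 51.7%, the difference in H3K9me2 ends 0.0799 points, and the density 5.30 and 6.50 per Mb. With all deposited loops, MH63 had 35.0% of its list (difference -0.163 points, the opposite direction), a median of 6 PETs, 33.8% with H3K4me3 at both ends (difference -7.36), 8.60% with an H3K4me3 loop (-6.86), 74.2% with a common partner (11.7) and 16.7 loops per Mb. With a limit of 10 in ZS97 only, the ZS97 values were those given for 10 PETs, and the differences were 0.733 points for the share of the list, -8.10 for H3K4me3 at both ends, -9.66 for an H3K4me3 loop and 14.5 for a common partner. With span between outer ends, the share of the list was 45.1% and 41.4%, the median PET count in MH63 11, H3K4me3 at both ends in MH63 39.2%, an H3K4me3 loop 14.8% and 17.9%, a common partner 64.0% and 60.7% and the density 12.1 and 15.5 per Mb. With span between inner ends, the share of the list was 31.8% and 30.2%, the median PET count in MH63 9, an H3K4me3 loop 9.99% and 12.8% and the density 8.53 and 11.3 per Mb. An FDR under 0.01 gave 40.0% and 38.8% of the list, a difference of 1.15 points. With 50% of the RNAPII anchor covered, H3K4me3 at both ends fell to 1.02% and 3.76% (-2.74), an H3K4me3 loop to 0.275% and 1.66% (-1.38) and H3K9me2 at either end to 1.18% and 0.502%. In windows of 2 kb these were 11.7% and 19.2% (-7.53), 3.99% and 7.95%, and 2.23% and 1.77%. Joining intervals within 1 kb gave a common partner to 67.4% in ZS97 and a difference of -0.172 points, the opposite direction, and identical intervals only gave 60.9% in ZS97. Counting common partners over loops of up to 1 Mb moved no value beyond its interval. Loops whose anchors overlap could not be tried as an alternative, since 0 of them had a span of 20 to 100 kb, and the ZS97 list is the same with all deposited loops.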
